A study of Homo sapiens with 4 samples.

Results

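The genes described here are 35 human genes of glycolysis and the hypoxia response, in oncogene-induced senescence (OIS) and after expression of a cleaved histone H3.3. They were chosen by name: glucose and monocarboxylate transporters, the enzymes that carry glucose to lactate, the regulators of phosphofructokinase and of pyruvate dehydrogenase, TXNIP, HIF1A and 3 genes of the hypoxia response. All 35 had a locus among the 22679 named genes or joined loci listed, and 34 reached 1 FPKM or more in some library, as did 12183 named genes in all. FPKM counts the sequenced fragments of a gene per kilobase of its transcript, relative to all fragments mapped in that library. EGLN3, a prolyl hydroxylase that senses oxygen, was listed at 0 FPKM in OIS, 0 in H3.3cs1 late, 0.0227 in H3.3cs1 early and 0.0433 in growing cells, and was not compared.

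Poly(A) RNA was sequenced from IMR90 cells, a line of human lung fibroblasts, with 1 library in each of 4 groups, all at passage 16. OIS cells carried a retroviral fusion of the oncogene H-RasV12 with an oestrogen receptor domain (ER:H-RasV12), switched on by 10 nM tamoxifen for 8 days. H3.3cs1 cells carried a retroviral, Flag-tagged, cleaved form of the histone H3.3 and were taken late, at day 13, or early, at day 3. Growing cells carried the empty retroviral vector pBabe and were taken at day 13. OIS and growing cells therefore differ in vector and tamoxifen, and may differ in time in culture, as only days of tamoxifen are given for OIS. The parts of these cannot be told apart, and H3.3cs1 early is set against a growing library taken later.

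Glycolysis splits glucose to pyruvate in the cytosol, and lactate dehydrogenase with the monocarboxylate transporters lets cells keep it running by exporting lactate. Pyruvate dehydrogenase feeds pyruvate to mitochondria and is switched off by its kinases. HIF1A encodes the oxygen-sensitive subunit of a transcription factor that raises many of these genes when oxygen is low, and its activity is set mostly by the stability of that protein. TXNIP, an arrestin-like protein, lowers glucose uptake, and its gene is switched on by the sugar-sensing factors MondoA and ChREBP. Proliferating and RAS-transformed cells are known for high glucose use.

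With 1 library per group there is no replicate check, and each difference describes these libraries only. Differences are of log2(FPKM + 1), folds are computed from it and come out too small for genes at low FPKM, and a gene is called higher or lower, or said to have risen or fallen, only at 2-fold or more. In bulk RNA, fewer cells of a type and less RNA per cell cannot be told apart. HRAS stood at 3153 FPKM in OIS, 41.9 in H3.3cs1 late, 49.8 in H3.3cs1 early and 47.4 in growing cells, highest in the library labelled with the RAS construct. H3F3B, an H3.3 gene, stood at 90.5, 450, 229 and 105 FPKM and H3F3A, the other, at 236, 132, 130 and 190 FPKM in OIS, late, early and growing cells, and FPKM does not separate a construct from the cell's own gene. All 10 fibroblast markers had at least 1 FPKM in every library, with sums of 5007, 11449, 6197 and 10818 FPKM in OIS, late, early and growing cells, and 6 of the 10 were at least 2-fold lower in OIS than in growing cells, against 8.17% of all genes compared. The 7 endothelial markers summed to 17.6, 1.04, 2.01 and 1.90 FPKM in the same libraries, of which CLDN5 made up 11.6 FPKM in OIS, and CDH5 was at 0 in all 4. At 1 FPKM or more were 3 of them in OIS, 0 in late, 1 in early and 1 in growing cells. The 8 epithelial markers summed to 18.5, 184, 68.8 and 90.1 FPKM, mostly KRT18, with KRT5 at 0 in all 4. The leukocyte markers other than CD68 summed to 0.424, 0.316, 0.244 and 0.409 FPKM, and CD68, joined to MPDU1 in the files, stood at 89.4, 39.3, 52.3 and 56.2 FPKM. The part of other cell types in the results below was not tested.

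Promoters of 4 members with large differences between libraries, and of ARRDC4, a related gene, are shown first, since HIF1 and the sugar-sensing factors act at short motifs. The windows are from RefSeq (GRCh38.p14), reach from 250 bases before a gene's start to 50 after it, and run 5′ to 3′ on the gene's strand. TXNIP is chr1:145996530-145996829 (minus strand), ARRDC4 is chr15:97960453-97960752 (plus), SLC2A1 is chr1:42958819-42959118 (minus), HK2 is chr2:74833877-74834176 (plus) and ANGPTL4 is chr19:8363905-8364204 (plus). Capitals mark the carbohydrate response element (CACGNG, 5 bases, CACGNG) in TXNIP, the E-box (CACGTG) and AP-1 site (TGACTCA) in ARRDC4, and the hypoxia response element core (ACGTG or GCGTG, either strand) in the other three. The TXNIP and ARRDC4 windows also hold 2 and 6 matches to that core, which are not marked as such.
TXNIP: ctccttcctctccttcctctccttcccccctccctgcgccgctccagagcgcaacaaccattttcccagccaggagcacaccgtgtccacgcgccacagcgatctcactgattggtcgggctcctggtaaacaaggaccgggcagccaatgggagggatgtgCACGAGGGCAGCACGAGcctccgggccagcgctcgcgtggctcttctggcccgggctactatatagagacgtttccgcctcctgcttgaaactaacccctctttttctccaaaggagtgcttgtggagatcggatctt
ARRDC4: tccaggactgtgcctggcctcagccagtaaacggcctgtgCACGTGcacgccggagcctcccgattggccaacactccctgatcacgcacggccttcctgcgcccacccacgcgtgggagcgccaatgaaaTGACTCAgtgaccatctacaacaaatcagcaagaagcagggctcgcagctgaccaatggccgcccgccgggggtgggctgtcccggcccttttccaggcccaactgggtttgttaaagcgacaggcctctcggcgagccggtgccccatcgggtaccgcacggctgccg
SLC2A1: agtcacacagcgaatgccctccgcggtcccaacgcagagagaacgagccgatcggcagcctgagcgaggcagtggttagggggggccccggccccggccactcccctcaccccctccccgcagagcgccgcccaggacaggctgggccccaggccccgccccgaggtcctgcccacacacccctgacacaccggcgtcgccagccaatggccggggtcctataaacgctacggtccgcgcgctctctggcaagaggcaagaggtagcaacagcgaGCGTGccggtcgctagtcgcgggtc
HK2: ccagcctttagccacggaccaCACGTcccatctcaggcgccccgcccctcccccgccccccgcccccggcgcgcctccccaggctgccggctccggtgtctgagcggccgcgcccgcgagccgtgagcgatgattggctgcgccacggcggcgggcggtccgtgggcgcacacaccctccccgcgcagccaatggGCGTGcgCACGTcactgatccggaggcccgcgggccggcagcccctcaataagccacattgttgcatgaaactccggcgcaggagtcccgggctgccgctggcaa
ANGPTL4: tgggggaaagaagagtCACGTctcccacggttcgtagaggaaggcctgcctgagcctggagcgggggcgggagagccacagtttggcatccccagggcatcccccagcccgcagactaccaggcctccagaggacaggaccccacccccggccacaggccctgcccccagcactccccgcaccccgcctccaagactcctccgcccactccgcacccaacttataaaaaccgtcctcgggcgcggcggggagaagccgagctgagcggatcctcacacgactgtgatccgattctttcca

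Of the 35 members, 32 had a promoter window in the RefSeq table, with 62 windows in all. The hypoxia response element core was found in 40 of the 62, or 64.5%, and in 48.4% of the 35116 windows of all genes. The E-box, which contains that core, was in 9 member windows (14.5%), against 7.26% of all windows. The AP-1 site (TGAGTCA or TGACTCA) was in 3 member windows (4.84%), against 4.95% of all. The carbohydrate response element was chosen after the values had been seen, and the other motifs too were chosen with earlier results of these data known. It was in 20 of all windows (0.0570%), and TXNIP was the 1 member with it, 88 bases before its start. The ARRDC4 window held 0 matches to it. Of 14 compared genes with it 1, TXNIP, was at least 2-fold higher in OIS than in growing cells and 0 were lower. Among all genes 9.13% were higher and 8.17% lower. A match describes the letters of a window, not binding of a factor.

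**Figure D1:**
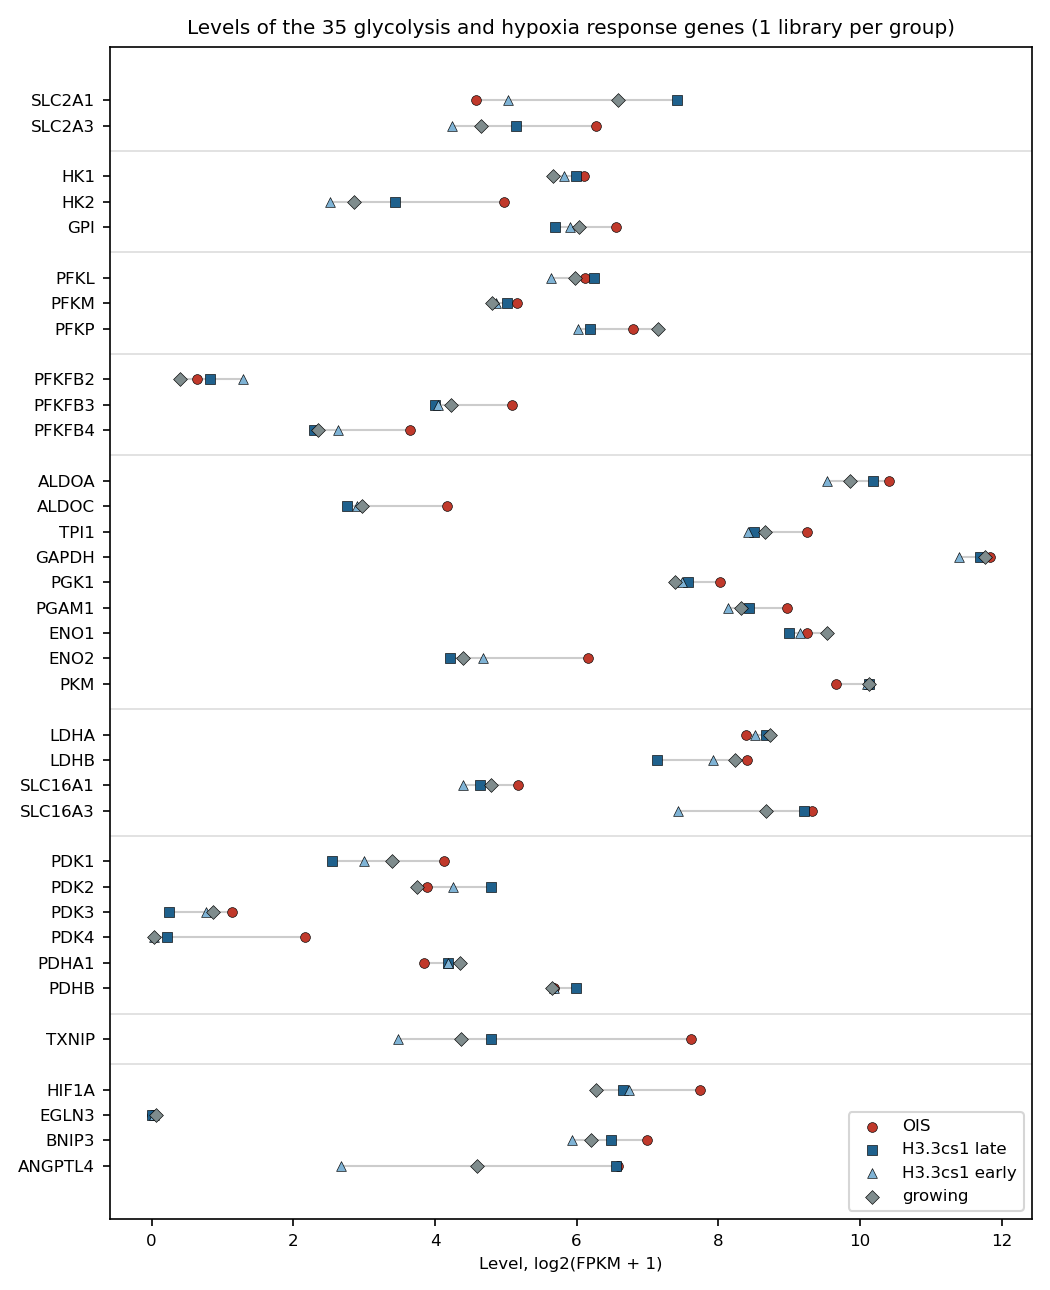
Level of each of the 35 members as log2(FPKM + 1) on the horizontal axis, by role from glucose uptake at the top to the hypoxia response at the bottom, with 1 symbol per library (OIS, H3.3cs1 late, H3.3cs1 early, growing). GAPDH is at the right in every library, EGLN3 is near the left end in every library, as is PDK4 outside OIS, and TXNIP and ANGPTL4 span wide ranges.

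OIS was set against growing cells to ask how these genes stood in RAS-driven senescence. Of the 34 members 9 were at least 2-fold higher in OIS and 1 was lower, against 9.13% higher and 8.17% lower among all 12183 genes. The members' share was 26.5% higher and 2.94% lower, and their median difference was 0.54, beside 0.03 over all genes. The risers were SLC2A3, HK2, the joined locus of PFKFB4 and UCN2, ALDOC, ENO2, PDK4, TXNIP, HIF1A and ANGPTL4, and the gene that fell was SLC2A1. The named genes of each library were then rescaled to the same sum. After that rescaling 8 members were higher and 1 was lower, against 6.63% higher and 11.0% lower among all genes. Of all genes that changed, 37.7% were higher after that rescaling and 52.8% before it, and the median over all genes after it was -0.16. PDK4 passed the filter on low values only through OIS, where it is high, so its difference follows in part from that filter.

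Both main glucose transporters differed in OIS, in opposite directions. SLC2A1, which encodes GLUT1, the glucose carrier of most cell types, stood at 22.8 FPKM in OIS, 169 in H3.3cs1 late, 31.7 in H3.3cs1 early and 94.7 in growing cells. It was 4.02-fold lower in OIS than in growing cells and 7.16-fold lower than in H3.3cs1 late. SLC2A3, which encodes GLUT3, a carrier with high affinity for glucose, stood at 76.2 FPKM in OIS, 34.2 in H3.3cs1 late, 17.9 in H3.3cs1 early and 24.2 in growing cells, 3.06-fold higher in OIS than in growing cells. Of the FPKM of the 2 genes, SLC2A3 held 77.0% in OIS, 16.8% in H3.3cs1 late, 36.0% in H3.3cs1 early and 20.4% in growing cells, a share within each library that does not depend on scaling between libraries.

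HK2, a hexokinase that is abundant in many tumours, rose in OIS. It stood at 30.3 FPKM in OIS, 9.85 in H3.3cs1 late, 4.75 in H3.3cs1 early and 6.23 in growing cells, 4.33-fold higher in OIS than in growing cells. HK1, the hexokinase of most tissues, stood at 67.8, 62.6, 55.5 and 49.9 FPKM in the same order and passed 2-fold in no comparison. HK2 held 30.9% of the summed FPKM of the 2 hexokinases in OIS, 13.6% in H3.3cs1 late, 7.89% in H3.3cs1 early and 11.1% in growing cells. GPI, which turns glucose phosphate into fructose phosphate, was between 50.7 and 93.4 FPKM, highest in OIS, with no difference of 2-fold.

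**Figure D2:**
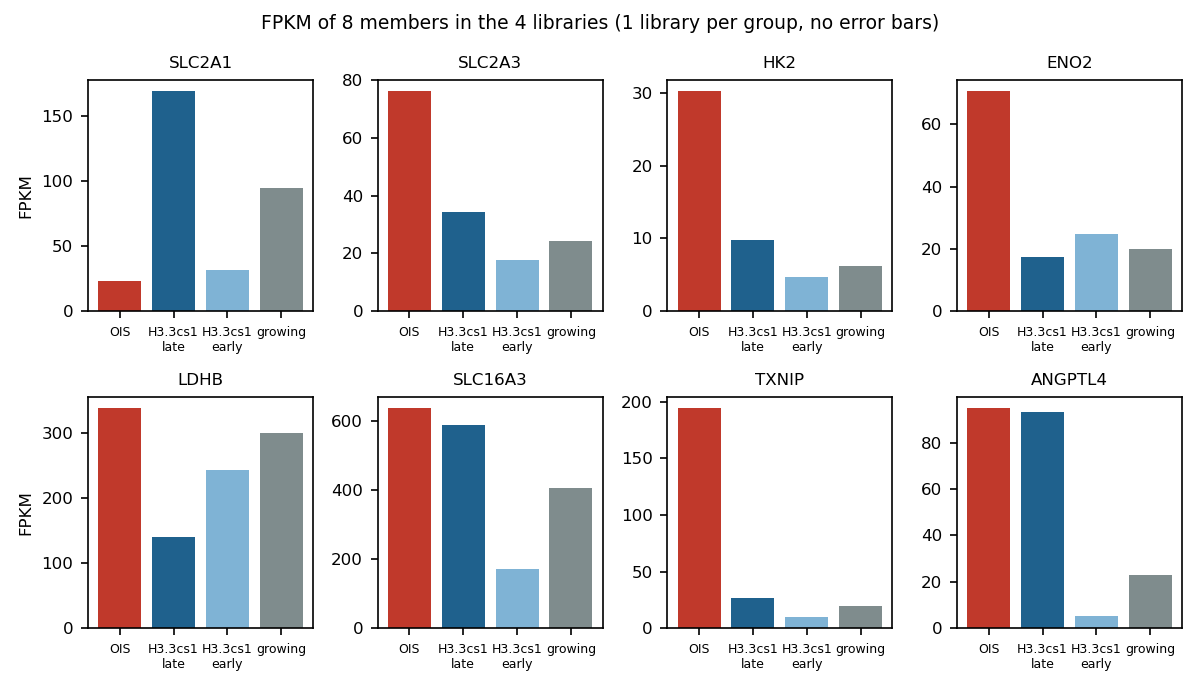
FPKM of 8 members, 1 bar per library in the order OIS, H3.3cs1 late, H3.3cs1 early and growing, on linear axes that start at 0 and differ between panels. SLC2A3, HK2, ENO2 and TXNIP are highest in OIS, SLC2A1 is highest in H3.3cs1 late, and LDHB is lowest there.

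The 3 phosphofructokinase subunits, which form the committing step of glycolysis, did not pass 2-fold in OIS. PFKP, the platelet subunit, stood at 110 FPKM in OIS, 72.2 in H3.3cs1 late, 63.7 in H3.3cs1 early and 140 in growing cells, and fell 2.18-fold in H3.3cs1 early. PFKL ranged from 48.8 to 74.9 FPKM and PFKM from 26.8 to 34.6 FPKM. PFKP held 51.7% of the subunits' FPKM in OIS, 40.5% in H3.3cs1 late, 45.3% in H3.3cs1 early and 61.3% in growing cells, so growing cells had the highest share of it.

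The PFKFB enzymes make or remove the activator of phosphofructokinase. PFKFB3, a strong producer of that activator, stood at 32.99 FPKM in OIS, 15.1 in H3.3cs1 late, 15.5 in H3.3cs1 early and 17.8 in growing cells, a difference of 0.85 on the log2 scale between OIS and growing cells that missed 2-fold. PFKFB4 appears in the files only in 1 locus joined to UCN2, a peptide hormone gene, and its part of the signal cannot be separated. That locus stood at 11.5 FPKM in OIS, 3.88 in H3.3cs1 late, 5.17 in H3.3cs1 early and 4.12 in growing cells, and rose 2.45-fold in OIS against growing cells. PFKFB2 was between 0.320 and 1.45 FPKM and passed the filter only through H3.3cs1 early.

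Of the 9 enzymes from aldolase to pyruvate kinase, all but ALDOC and ENO2 had at least 166 FPKM in every library. GAPDH stood at 3652 FPKM in OIS, 3300 in H3.3cs1 late, 2696 in H3.3cs1 early and 3468 in growing cells, ranking 7, 4, 4 and 5 among named genes. Of the others, ALDOA was between 741 and 1361 FPKM, PKM between 808 and 1119, ENO1 between 510 and 742, TPI1 between 342 and 605, PGAM1 between 281 and 502, and PGK1 between 166 and 260, with no 2-fold difference. Together the 9 made up 1.52% of all named FPKM in OIS, 1.60% in H3.3cs1 late, 1.62% in H3.3cs1 early and 1.63% in growing cells, a narrow range. Pseudogenes nearly identical to GAPDH, PGK1, TPI1 and other members exist, and how reads shared with them were counted is unknown here, so these levels are uncertain.

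The minor isoforms of aldolase and enolase were the ones that rose. ENO2, the neuronal enolase, stood at 70.7 FPKM in OIS, 17.5 in H3.3cs1 late, 24.7 in H3.3cs1 early and 20.1 in growing cells, 3.40-fold higher in OIS than in growing cells. It held 10.4% of enolase FPKM in OIS, 3.32% in H3.3cs1 late, 4.15% in H3.3cs1 early and 2.63% in growing cells, and ENO1 held the rest. ALDOC, the brain aldolase, stood at 17.0 FPKM in OIS, 5.76 in H3.3cs1 late, 6.44 in H3.3cs1 early and 6.86 in growing cells. It rose 2.29-fold in OIS, but its difference was 0.97 on the log2 scale, below 2-fold, after rescaling to the same sum.

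Against growing cells, no gene of lactate handling passed 2-fold in OIS, and 1 did in each H3.3cs1 library. LDHB, whose subunit favours the turning of lactate into pyruvate, stood at 338 FPKM in OIS, 140 in H3.3cs1 late, 242 in H3.3cs1 early and 300 in growing cells, and fell 2.13-fold in H3.3cs1 late against growing cells. LDHA, the subunit that favours lactate production, was between 335 and 424 FPKM in all 4 libraries. LDHB held 50.2% of the summed FPKM of the pair in OIS, 25.6% in H3.3cs1 late, 40.0% in H3.3cs1 early and 41.4% in growing cells. SLC16A3, which encodes MCT4, the lactate exporter of glycolytic cells, stood at 637 FPKM in OIS, 588 in H3.3cs1 late, 171 in H3.3cs1 early and 405 in growing cells, 2.36-fold lower in H3.3cs1 early than in growing cells. SLC16A1, which encodes MCT1, was between 20.1 and 34.9 FPKM with no difference of 2-fold.

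**Figure D3:**
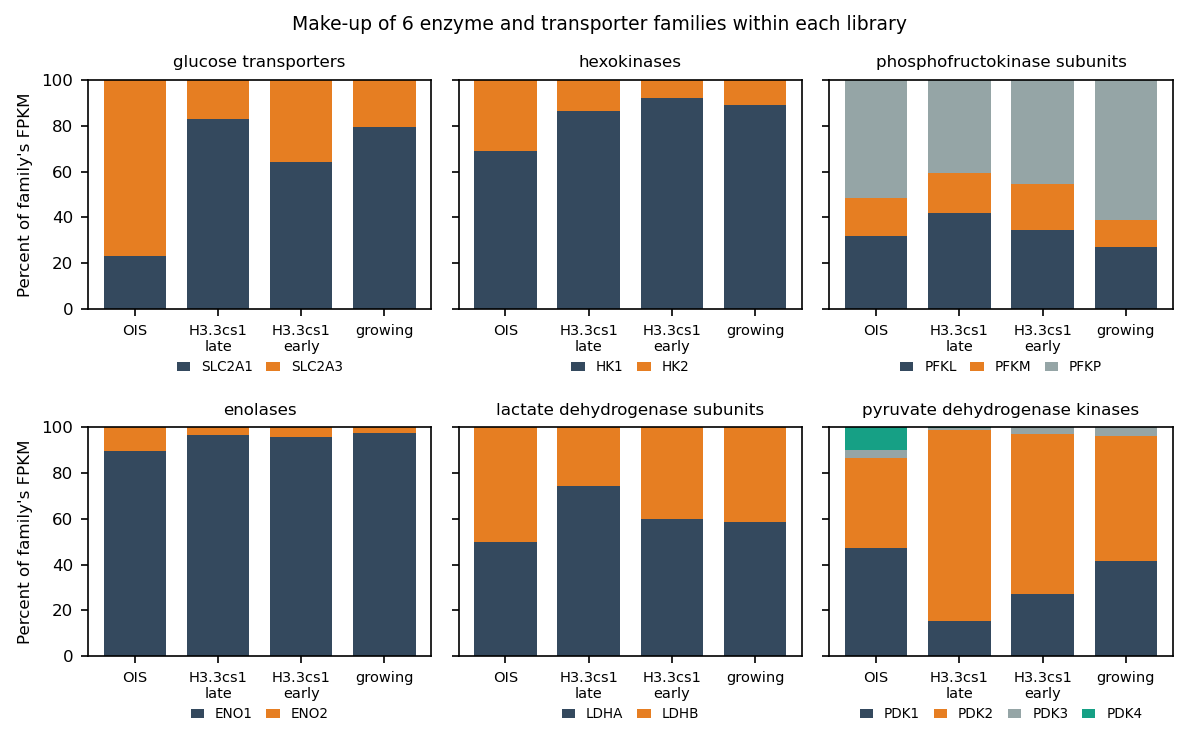
Share of each gene in the summed FPKM of its family, as percent on the vertical axis, with 1 stacked bar per library (OIS, H3.3cs1 late, H3.3cs1 early, growing) for 6 families. SLC2A3 makes up 77.0% of its pair in OIS, and PDK2 makes up 83.7% of the PDK family in H3.3cs1 late.

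The pyruvate dehydrogenase kinases shifted in make-up between libraries. PDK1, a HIF1 target, stood at 16.5 FPKM in OIS, 4.84 in H3.3cs1 late, 6.97 in H3.3cs1 early and 9.53 in growing cells, and PDK2, the broadly expressed kinase, at 13.8, 26.6, 18.1 and 12.4 FPKM. PDK2 rose 2.06-fold in H3.3cs1 late against growing cells. PDK4, the kinase of fasting and fat oxidation, stood at 3.48 FPKM in OIS, 0.159 in H3.3cs1 late, 0.0218 in H3.3cs1 early and 0.0207 in growing cells, 4.39-fold higher in OIS than in growing cells. PDK3 stood at 1.20 FPKM in OIS, 0.187 in H3.3cs1 late, 0.704 in H3.3cs1 early and 0.825 in growing cells, and it passed the filter only through OIS. PDK1 held 47.1% of the FPKM of the 4 kinases in OIS, 15.2% in H3.3cs1 late, 27.0% in H3.3cs1 early and 41.8% in growing cells, and PDK2 held 39.5%, 83.7%, 70.2% and 54.5%. The H3.3cs1 libraries thus had the higher shares of PDK2. The subunit genes PDHA1 and PDHB stayed between 13.4 and 19.4 FPKM and between 49.4 and 62.3 FPKM.

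TXNIP had the largest difference of the members between OIS and growing cells with a pseudocount of 1, and with one of 0.1 that of PDK4 was larger, at 4.89 on the log2 scale against 3.297 for TXNIP. It stood at 194 FPKM in OIS, 26.6 in H3.3cs1 late, 10.2 in H3.3cs1 early and 19.7 in growing cells, 9.44-fold higher in OIS than in growing cells. Among named genes it ranked 396 in OIS and 3608 in growing cells. ARRDC4, of the same arrestin family and also a target of MondoA, stood at 49.1 FPKM in OIS, 15.1 in H3.3cs1 late, 3.59 in H3.3cs1 early and 4.36 in growing cells, and rose 9.35-fold in OIS against growing cells. Of the 6 compared genes of the list of other alpha-arrestins and Mondo factors, ARRDC4 was the 1 that rose in OIS, and 0 fell, against 9.13% higher and 8.17% lower among all genes. ARRDC4 was also the 1 that rose in H3.3cs1 late against growing cells, and 0 fell, against 3.51% and 5.47% of all genes. TXNIP did not pass 2-fold in that comparison.

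HIF1A rose in OIS, at the level of its RNA. It stood at 212 FPKM in OIS, 99.4 in H3.3cs1 late, 106 in H3.3cs1 early and 76.4 in growing cells, 2.76-fold higher in OIS than in growing cells. ANGPTL4, a secreted inhibitor of lipoprotein lipase and a hypoxia and PPAR target, stood at 94.8 FPKM in OIS, 93.3 in H3.3cs1 late, 5.38 in H3.3cs1 early and 23.1 in growing cells. It was 3.98-fold higher in OIS and 3.92-fold higher in H3.3cs1 late than in growing cells, and 3.77-fold lower in H3.3cs1 early. BNIP3, a receptor for the removal of mitochondria, was between 60.3 and 126 FPKM, highest in OIS, and passed 2-fold in no comparison.

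H3.3cs1 late was set against growing cells at the same day. ANGPTL4 and PDK2 rose and LDHB fell, 2 and 1 of 34 members, or 5.88% and 2.94%, against 3.51% higher and 5.47% lower among all genes, shares near that background. The members' median difference was 0.14, beside -0.04 over all genes. In H3.3cs1 early 0 of the 34 members were higher and 4 were lower than in growing cells, the 4 being SLC2A1, PFKP, SLC16A3 and ANGPTL4. That is 11.8% lower, against 1.40% higher and 3.96% lower among all genes, and the median was -0.20, beside -0.02. After rescaling to the same sum 1 member was higher and 2 were lower in early cells, against 2.59% higher and 2.77% lower among all genes. PFKP and SLC16A3 no longer passed 2-fold. Of all genes that changed, 48.3% were higher after rescaling and 26.1% before it. Loci with no gene name held 57.9% of all FPKM in H3.3cs1 early, against 49.0% in growing cells, and the part of that difference in these results was not tested. These 2 comparisons and that of OIS share the growing library.

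The late H3.3cs1 library was also set against the early one. SLC2A1 was 5.20-fold, SLC16A3 3.43-fold, TXNIP 2.48-fold and ANGPTL4 14.8-fold higher late than early, so 4 of 34 members (11.8%) were higher and 0 were lower, against 5.47% higher and 3.40% lower among all genes. The median was 0.17, beside -0.04 over all genes, but -0.08 after rescaling to the same sum and -0.06 after quantile normalization, so the direction of the median depends on the scaling while the 4 risers stayed above 2-fold under both. Rescaling to the same sum gave 4 higher and 1 lower member, against 3.79% higher and 6.62% lower among all genes. Of all genes that changed, 36.4% were higher after rescaling and 61.7% before it.

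OIS set against H3.3cs1 late had 11 members higher and 1 lower, or 32.4% and 2.94% of the 34, against 11.2% higher and 8.51% lower among all genes. The median was 0.52, beside 0.09. TXNIP was 7.06-fold, ENO2 3.88-fold, PDK4 3.86-fold, PDK1 2.99-fold and HK2 2.88-fold higher in OIS. ALDOC, the joined PFKFB4 locus, LDHB, SLC2A3, HIF1A and PFKFB3 were between 2.12-fold and 2.66-fold higher, and SLC2A1 was the 1 member lower. SLC2A3, HIF1A and PFKFB3 did not pass 2-fold after rescaling to the same sum, with log2 differences of 0.89, 0.84 and 0.84, nor after quantile normalization, with 0.97, 0.99 and 0.89. Rescaling to the same sum left 8 members higher and 2 lower, against 8.22% higher and 11.7% lower among all genes. Of all genes that changed, 41.3% were higher after rescaling and 56.8% before it. Over the 4 libraries, 24 of the 34 members (70.6%) were highest in OIS, as were 37.8% of all genes compared, and 13 (38.2%) were lowest in H3.3cs1 early, as were 20.0% of all genes. These counts depend on the scaling between libraries and were not repeated after rescaling. Summed named FPKM was 517337 in OIS, 436428 in H3.3cs1 late, 367086 in H3.3cs1 early and 438922 in growing cells. PDK3 and PDK4 passed the filter on low values only through OIS, so OIS had to be their highest library. The difference of PDK4 between OIS and H3.3cs1 late also follows in part from that filter.

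**Figure D4:**
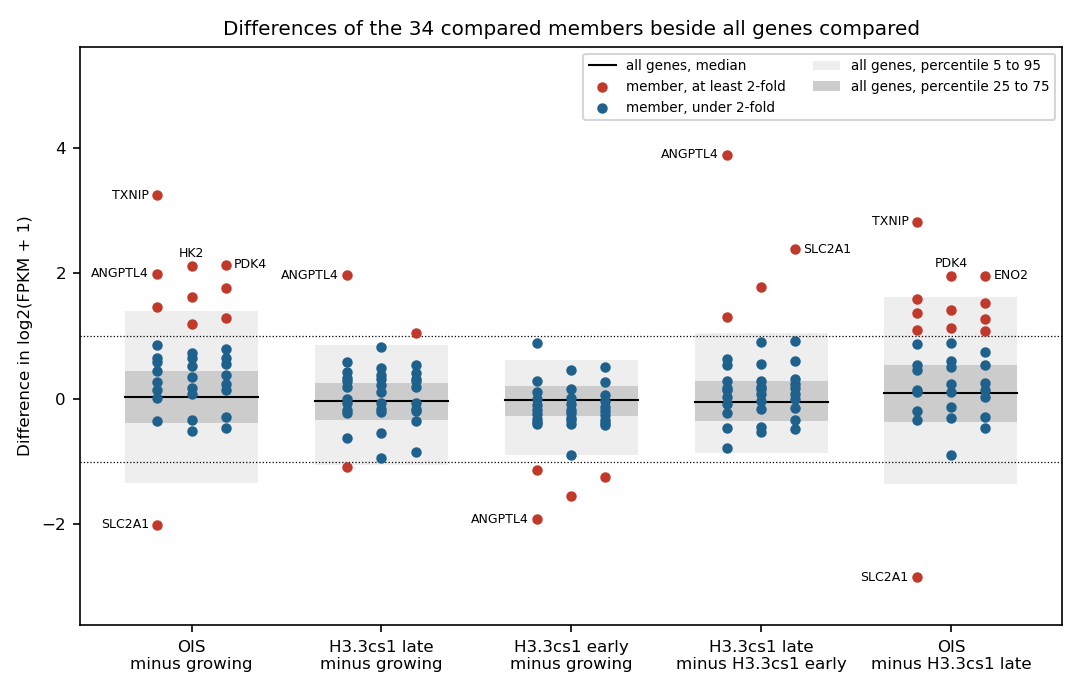
Difference in log2(FPKM + 1) of the 34 compared members in 5 comparisons, on the vertical axis, over grey bars that give the percentiles 5 to 95 and 25 to 75 of all genes compared and a line at their median. Points beyond the dotted lines at 2-fold are red, with the larger ones named. In OIS minus growing 9 members lie above and 1, SLC2A1, lies below the lines.

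Other genes of the pathway were taken from 7 lists of 88 genes, and their counts in OIS against growing cells stand beside 9.13% higher and 8.17% lower among all genes. Of 9 genes compared from the list of other glycolytic enzymes and regulators 1 rose and 0 fell in OIS against growing cells, a share near that of all genes. Among these 9 are PGAM5, whose part in glycolysis was not tested, and GAPDHS, which is joined to TMEM147 and cannot be read alone. In H3.3cs1 late 2 of the 9 rose and 0 fell against growing cells, beside 3.51% higher and 5.47% lower among all genes. BPGM, the maker of bisphosphoglycerate in red cells, stood at 245 FPKM in OIS, 57.9 in H3.3cs1 late, 24.9 in H3.3cs1 early and 22.3 in growing cells. It was 10.5-fold higher in OIS and 2.53-fold higher in H3.3cs1 late than in growing cells. Of 9 other transporters 2 rose and 2 fell in OIS. SLC16A6, of the monocarboxylate carrier family, stood at 91.1 FPKM in OIS, 0.870 in H3.3cs1 late, 0.671 in H3.3cs1 early and 1.06 in growing cells, 44.7-fold higher in OIS, and SLC2A13, a myo-inositol carrier, was 4.02-fold higher.

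Of 9 other pyruvate dehydrogenase and pyruvate carrier genes 2 rose and 0 fell in OIS, against 9.13% higher and 8.17% lower among all genes. PDP2, a phosphatase that reactivates the complex, was 2.18-fold higher and PDHX, a structural subunit, was 2.15-fold higher. Of 7 HIF subunits and oxygen sensors 1 rose and 1 fell in OIS, against those same shares of all genes, and 2 rose and 0 fell in H3.3cs1 late, against 3.51% higher and 5.47% lower. ARNT2, a partner subunit of HIF, stood at 1.97 FPKM in OIS, 17.3 in H3.3cs1 late, 5.67 in H3.3cs1 early and 5.85 in growing cells, 2.31-fold lower in OIS and 2.66-fold higher in H3.3cs1 late than in growing cells. EPAS1, which encodes HIF2A, was 2.34-fold higher in H3.3cs1 late. The locus that rose in OIS, ARNT joined to CTSK, by 3.90-fold, cannot be read as ARNT alone.

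Among 22 other HIF target genes 7 rose and 1 fell in OIS, against 9.13% higher and 8.17% lower among all genes, with a median difference of 0.62, beside 0.03 over all genes. VEGFA, the angiogenic growth factor, stood at 177 FPKM in OIS, 31.0 in H3.3cs1 late, 19.1 in H3.3cs1 early and 20.4 in growing cells, 8.32-fold higher in OIS than in growing cells. BHLHE40, a transcriptional repressor, was 5.33-fold higher, and BNIP3L, a relative of BNIP3, was 3.72-fold higher. LOX, the collagen crosslinking oxidase, stood at 50.8 FPKM in OIS, 687 in H3.3cs1 late, 222 in H3.3cs1 early and 362 in growing cells, 7.02-fold lower in OIS. H3.3cs1 late had 2 of the 22 higher and 2 lower than growing cells, against 3.51% and 5.47% of all genes, and H3.3cs1 early also 2 and 2, against 1.40% and 3.96%. The medians of the 22 were 0.48 in late and -0.14 in early against growing cells, beside -0.04 and -0.02 over all genes. In late against early 7 of the 22 were higher and 2 lower, against 5.47% and 3.40% of all genes, with a median of 0.45, beside -0.04.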

How the data were processed

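RNA-seq of poly(A) RNA gave 1 deposited file per library, with 1 value per locus in FPKM, per the values and the submitters' processing notes, which name TopHat2 2.0.3, Bowtie2, Cufflinks 2.1.1 and hg19. Read counts, strand use and any scaling across libraries were not given in the sources used here, nor was the treatment of reads that map to several places. The authors' FPKM were used as deposited. The files' header lines do not name the value column by its own library, so each file's library was taken from the deposit's record; HRAS is high in that of OIS alone, and no gene checks which H3.3cs1 file is early and which late. Lines of a symbol were summed, 2310 loci with no name were left out, and genes with at least 1 FPKM in at least 1 library were compared as log2(FPKM + 1), with Python 3.11.15, pandas 2.3.3 and numpy 2.4.6. The size rule was checked on simulated data, with changes well past 2-fold planted in genes at 5 FPKM or more and an assumed noise. The spread between replicates is unknown here, so that check cannot show how the rule fares near 2-fold or at low FPKM. Depth relative to growing, from low values, was roughly 83.8% in OIS, 78.2% in H3.3cs1 late and 95.9% in H3.3cs1 early. The members, lists and motifs were chosen with earlier results of these data known. Named genes were every member, and up to 4 genes per pathway list with the largest difference against growing among those at 5 FPKM or more and past 2-fold; 1 gene under this rule is not reported here. Alternatives are given in the closing section. Values of 0 can be failed estimates. The reference build differs from hg19, so no position of a locus is given.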

Additional observations from a re-analysis of the deposited data

How the results depend on the processing

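Of the 33 member differences past 2-fold, 27 stayed past it under each of the 8 alternatives that gave a value for them. Of 260 such values 247 kept their side, 13 fell below 2-fold and 0 reversed. Rescaling the named genes to the same sum put 6 below 2-fold, quantile normalization 5 and centring on the median 2, among ALDOC in OIS against growing cells, PFKP and SLC16A3 in early against growing cells, and SLC2A3, PFKFB3 and HIF1A in OIS against late. The cause was not tested.

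With a pseudocount of 0.1, H3.3cs1 late had 4 members higher and 2 lower than growing cells, H3.3cs1 early had 1 higher, and late against early had 1 lower. The shares of all genes were also larger under that pseudocount, at 6.10% higher and 7.95% lower in late against growing cells, 3.59% higher in early against growing cells and 7.47% lower in late against early. After rescaling to the same sum, the median was 0.30 in OIS against growing cells, 0.28 in OIS against late, 0.015 in early against growing cells and -0.081 in late against early. That rescaling gave 1 higher and 2 lower members in early against growing cells, 1 lower in late against early and 2 lower in OIS against late. Of all genes, 2.59% were then higher and 2.77% lower in early against growing cells. The shares lower were 6.62% in late against early and 11.7% in OIS against late. Under quantile normalization these medians were 0.31, 0.35, -0.0064 and -0.060, with 2 lower members in early against growing cells, 1 lower in late against early and 2 lower in OIS against late. The shares of all genes lower in these comparisons were then 3.64%, 3.17% and 9.74%. The other counts and medians kept their value within 1.5 times or 0.1. No paired analysis was possible because each group has 1 library, and for that reason no library could be left out.

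The limits are that no spread between replicates is known, that FPKM give no counts, and that genes under 1 FPKM (EGLN3, or PDK4 outside OIS) are weakly measured at this depth. Near-identical copies of GAPDH, PGK1, TPI1, LDHA and other members exist as pseudogenes, and how reads shared with them were treated is not given in the sources used here.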

Other observations

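The pentose phosphate pathway, which branches from glycolysis, had 1 of 8 genes higher and 0 lower in OIS than in growing cells, against 9.13% and 8.17% of all genes, with a median difference of -0.07, beside 0.03 over all genes. H6PD, the enzyme of the endoplasmic reticulum that starts a second copy of that pathway, stood at 47.3 FPKM in OIS, 14.6 in H3.3cs1 late, 11.9 in H3.3cs1 early and 14.5 in growing cells, 3.12-fold higher in OIS than in growing cells.

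The 35 glycolysis and hypoxia response genes together summed to 2.03% of named FPKM in OIS, 2.09% in H3.3cs1 late, 1.999% in H3.3cs1 early and 2.07% in growing cells.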
